A study of Mus musculus with 9 samples.

Results

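Connexins are the subunits of gap junctions, and 6 connexin genes (Gja1, Gja3, Gja4, Gja5, Gjb2 and Gjc1) are described here out of the 20 connexin symbols and the 48397 gene symbols counted. They were chosen by name, with earlier results of these data known: Gja3 had been called lower in the deletion by DESeq2, and the others are its paralogues. RNA sequencing of the cardiac outflow tract was done on C57BL/6J embryos at embryonic day 12.5. The 4 wild-type samples had the genotype Nkx2-5+/+. The 5 deletion samples had the genotype Nkx2-5delta-enh/delta-enh, that is, they were homozygous for loss of an enhancer that drives the cardiac transcription factor gene Nkx2-5 in the anterior second heart field, the progenitor population that builds the outflow tract. No transgene, Cre or drug is named for either group, and the labels do not say whether a sample is 1 embryo or a pool, so the p-values below reflect sample-to-sample spread, which may be technical.

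A connexin protein crosses the membrane several times, and connexins assemble into hemichannels that dock with those of the neighbouring cell through their extracellular loops. In the heart this passes ions and small molecules from cell to cell and so couples the muscle electrically. Cx43, made from Gja1, is the main connexin of working ventricular muscle and is also found in neural crest, epicardial and mesenchymal cells. Cx45, from Gjc1, is the connexin of the early heart tube and of slowly conducting heart muscle. Cx40, from Gja5, is found in atrial muscle, the fast conduction system and arterial endothelium, and Cx37, from Gja4, in arterial endothelium. Cx46, from Gja3, is best known from lens fibre cells, and Cx26, from Gjb2, from the inner ear and other epithelia.

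The docking loops are what the 6 genes share most plainly, so the coding bases of the first loop's cysteine motif are shown (GENCODE M21 transcripts, GRCm38, coding strand 5′ to 3′). Capitals mark the codons of the 3 cysteines of the motif.
Gja1: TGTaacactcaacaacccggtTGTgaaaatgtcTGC
Gja3: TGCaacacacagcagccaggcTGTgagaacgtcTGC
Gja4: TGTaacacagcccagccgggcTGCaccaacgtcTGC
Gja5: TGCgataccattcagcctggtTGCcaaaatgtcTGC
Gjb2: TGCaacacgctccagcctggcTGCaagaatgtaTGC
Gjc1: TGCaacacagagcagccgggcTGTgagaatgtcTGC
The spacing of the cysteines is the same in all 6, over 12 residues that start at residue 54 in Gja1, Gja3, Gja4 and Gja5 and at residue 53 in Gjb2 and Gjc1. The Gja3 stretch lies on the minus strand at chr14:57036719-57036754, in exon 2, which holds its whole coding sequence. The second loop was found in all 6 as well, again over 12 residues, as in these 2 examples from the lens connexin and from the main ventricular connexin.
Gja3: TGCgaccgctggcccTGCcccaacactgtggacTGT
Gja1: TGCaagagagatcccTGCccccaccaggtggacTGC
Whole, the proteins range from 226 residues (Gjb2) to 417 (Gja3). The identity of aligned residues runs from 38.0% (Gja1 and Gjc1, 358 aligned) to 53.3% (Gja3 and Gjb2, 225 aligned). Pairs with the short Gjb2 were aligned over 221 to 225 residues only, so their percents are not comparable with those of longer pairs. Of the pairs without Gjb2 the highest was 51.2% (Gja1 and Gja4, 330 aligned). Gja3 had 49.9% with Gja5 and 49.8% with Gja4.

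**Figure D1:**
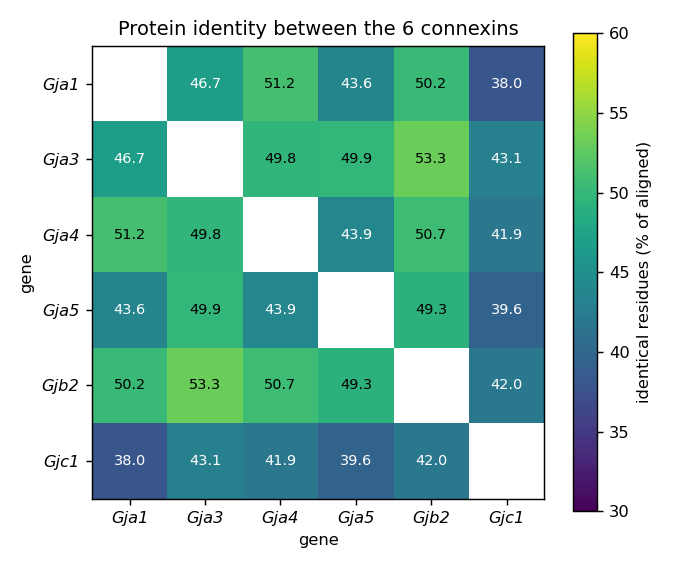
Percent of aligned residues that are identical, for each pair of the 6 connexin proteins translated from GENCODE M21 coding sequences; both axes list the genes. The highest value is 53.3% for Gja3 with Gjb2, over 225 aligned residues, and the lowest 38.0% for Gja1 with Gjc1, over 358. Pairs with the short Gjb2 are not comparable with the longer ones.

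Depth was between 27707435 and 49094225 reads assigned to genes per library. The deposited library names carry a number, 220 for wild types 1 and 2 and deletions 1 and 2, 247 for wild types 3 and 4 and deletions 3 and 4, and 274 for deletion 5 alone; what it stands for is not given. Deletion 2 stands apart, with a summed level of 3165 CPM over 12 neuron and Schwann cell markers against 101.8 to 152.5 CPM in the other 8 libraries (CPM are read counts scaled to library size, here with TMM factors). The tissue carried its labelled markers: 16 heart muscle genes summed to between 10910 and 25300 CPM, and 11 outflow tract genes to between 865 and 1481 CPM. Nkx2-5, the gene whose enhancer was deleted, stood at 18.8, 41.97, 44.99 and 39.5 CPM in wild types 1 to 4 and at 16.5, 24.4, 17.8, 11.4 and 17.4 CPM in deletions 1 to 5. The wild types were thus higher except for wild type 1, which lay inside the range of the deletions.

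Gja3 was lower in every deletion library than in every wild type. It stood at 13.5, 19.2, 13.6 and 13.1 CPM in wild types 1 to 4, and at 4.77, 8.38, 6.04, 6.27 and 5.29 CPM in deletions 1 to 5. The groups did not overlap: the highest deletion library, deletion 2, lay well below the lowest wild type, wild type 4. The mean of the 4 wild types was 14.85 ± 2.89 CPM and that of the 5 deletions 6.15 ± 1.38 CPM (SD). The wild-type mean was 2.42-fold the deletion mean, and the fitted log2 fold change was -1.27 (SE 0.20). Behind these values were 469 to 772 reads of Gja3 per wild-type library and 176 to 240 per deletion library.

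This difference is what drew attention to Gja3, so its statistics describe the choice and support nothing further. DESeq2 gave it an adjusted p of 5.62e-06 and limma-voom one of 0.0456, while edgeR's quasi-likelihood test gave 0.213 (all Benjamini-Hochberg adjusted). The edgeR and limma-voom values were adjusted over the 16522 genes tested. DESeq2 applied its default filter on mean counts before adjusting, so its set of genes differed. Over the whole table edgeR called 0 of 16522 genes, with 870 (5.27%) at an unadjusted p under 0.05. DESeq2 called 38 of 27632 (0.138%), of which 28 were lower (0.101%), and 69 with the replicate number as a block. Without deletion 2 or deletion 4, DESeq2 called 65 and 62. Limma-voom called 4 (0.0242%): Gja3, the keratin gene Krt8, the chaperone gene Clu and the convertase gene Pcsk6. Of the 5 members tested, 1 had groups that did not overlap, against 1.80% of all genes tested, or 0.974% with the deletions lower. Leaving out each library in turn kept the log2 fold change of Gja3 between -1.41 (without deletion 2) and -1.13 (without wild type 2), and DESeq2 called it in all 9 such fits.

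The libraries that chose Gja3 can be read by set, as a description only. Among the libraries numbered 220 alone the log2 fold change of Gja3 was -1.30 (SE 0.38), and among those numbered 247 and 274 it was -1.19 (SE 0.18). The interaction of genotype with 220 against 247 was 0.20 (SE 0.42, edgeR adjusted p = 0.939), an interval too wide to show that the sets act alike. Between the sets themselves Gja3 did not pass either, at a log2 difference of -0.19 (SE 0.21, edgeR adjusted p = 0.60).

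**Figure D2:**
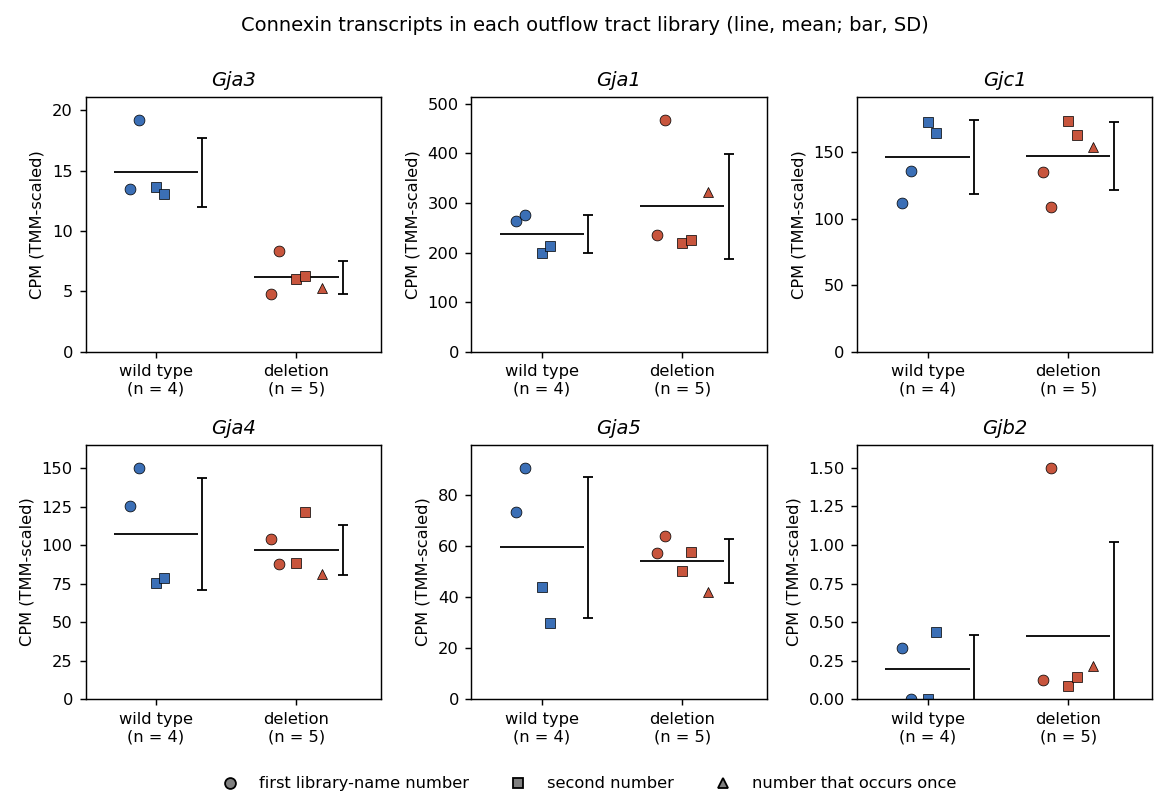
CPM of each of the 6 connexin genes (vertical axis) in the 4 wild-type and 5 deletion libraries; points are libraries, circles are libraries numbered 220, squares 247 and the triangle 274, lines are means and bars SDs, drawn from 0 where they would reach below it. Gja3 separates the groups, with deletions at 8.38 CPM or less and wild types at 13.1 CPM or more, while the other panels overlap.

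By genotype edgeR called no marker of any cell type list, as it called 0 of all 16522 genes tested. The 9 smooth muscle markers summed to between 3898 and 4269 CPM in wild type and between 2558 and 3877 CPM in the deletion, with 7 of the 9 at an unadjusted edgeR p under 0.05, all lower, against 5.27% of all genes in either direction. The 10 epicardium markers summed to between 899.7 and 1348 CPM and between 575.5 and 998.8 CPM, with 4 of 10 at such a p, all lower, and none of the 10 at 0. These epicardium sums overlapped, and 8 of the 10 genes had a log2 fold change below 0 and 2 above. Krt19, a keratin gene of the epicardium with the smallest p of the list, stood at 88.5 ± 15.05 CPM over the 4 wild types and 49.3 ± 12.2 CPM over the 5 deletions (mean ± SD). Heart muscle markers overlapped between groups, with 0 of 16 at an unadjusted edgeR p under 0.05 and none at 0 counts. Their median log2 fold change was -0.17, with 15 of the 16 below 0 and 1 above. The overlap came from wild type 1, with a sum of 10910 CPM. Wild types 2 to 4 stood at 25300, 21350 and 22180 CPM, above the deletions at 14800 to 19960 CPM. The summed markers of neural crest (143.4 to 228.2 and 179.7 to 261.7 CPM), red blood cells (1825 to 10350 and 1885 to 5720 CPM), foregut and skin epithelium (7.34 to 16.1 and 6.01 to 17.6 CPM) and skeletal muscle (268.4 to 595.2 and 166.1 to 465.2 CPM) overlapped between wild type and deletion. Most of the skeletal muscle sum was Acta1, at 442.0 ± 136.0 and 295.3 ± 132.6 CPM (mean ± SD). Of the 11 skeletal muscle genes, 5 stayed under 1 CPM in every library. At an unadjusted edgeR p under 0.05, neural crest had 2 of 5 tested genes higher (median log2 fold change 0.75), skeletal muscle 1 of 4 lower (median -1.21), epithelium 1 of 7 lower (median -0.19) and red blood cells 0 of 10 (median -1.07). The 11 outflow tract genes had 3 higher and 3 lower (median 0.07), with overlapping sums. The neural crest genes were Tfap2a, low at 0.137 ± 0.080 and 0.407 ± 0.197 CPM (mean ± SD), and Sox10, at 0.753 ± 0.551 and 4.08 ± 6.49 CPM. In the deletion the SD of Sox10 exceeded its mean. The skeletal muscle gene was Chrna1, also low at 0.957 ± 0.593 and 0.157 ± 0.149 CPM. In bulk tissue, fewer cells of a type and less RNA per cell cannot be told apart, and the part of these cell types in the Gja3 difference was not tested. Lens cells, where Gja3 is best known, left little trace: of 14 lens genes, Cryba2, Crybb2, Crygd and Lim2 had 0 counts in all libraries, 11 stayed under 1 CPM in every library, and the highest was the filament gene Bfsp1 at 3.64 ± 0.339 CPM over the 4 wild types and 3.735 ± 1.075 CPM over the 5 deletions (mean ± SD).

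**Figure D3:**
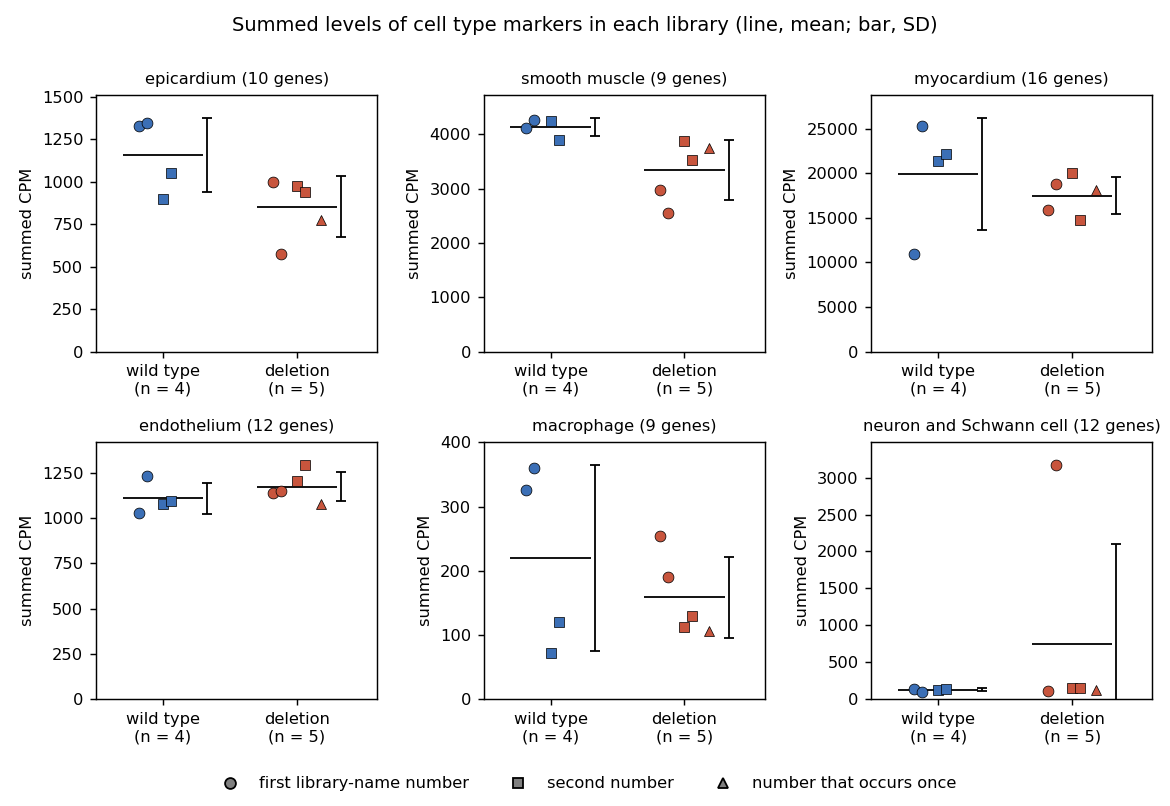
Summed CPM of the markers of 6 cell types (vertical axis) in the same libraries, with symbols, lines and bars as for the single genes, bars again drawn from 0 where they would reach below it. The lowest smooth muscle sum in wild type, 3898, is above the highest in the deletion, 3877, and the neuron and Schwann cell sum of deletion 2 reaches 3165.

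Gja1, the most abundant member by count, overlapped between groups. Its values were 263, 276, 199 and 212 CPM in wild types 1 to 4 and 236, 467, 219, 225 and 322 CPM in deletions 1 to 5. Deletion 2 was the highest library and deletion 5 the next, while the other 3 deletions lay within the wild-type range. The log2 fold change was 0.31 (SE 0.23, edgeR adjusted p = 0.915), and 0.08 without deletion 2, the library rich in neuron and Schwann cell markers. The part of those cells in the Gja1 level was not tested.

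Gjc1 had nearly the same mean in both groups and varied with the set of libraries instead. Wild types 1 to 4 held 112, 136, 173 and 164 CPM, and deletions 1 to 5 held 135.5, 109, 174, 163 and 154 CPM. The 4 libraries numbered 220 lay between 109 and 136 CPM, all below the 4 numbered 247, which lay between 163 and 174 CPM. The genotype difference was 0.01 on the log2 scale (SE 0.16, edgeR adjusted p = 0.998), whereas the difference of 247 from 220, with genotype in the fit, was 0.45 (SE 0.10, edgeR adjusted p = 0.0244). Gjc1 was the only member of the 5 tested to pass in that comparison, where 1594 genes or 9.65% of those tested passed, 905 (5.48%) higher and 689 (4.17%) lower in 247, a split that upper-quartile scaling turned to 682 higher and 791 lower. Gja1 also separated the sets, with 199 to 225 CPM in 247 below 236 to 467 CPM in 220. With Gjc1 that made 2 of the 5 members without overlap between 220 and 247, against 19.5% of all genes tested, and 1 of 5 lower in 247, against 8.36%. The Gjc1 call was lost without wild type 1 (adjusted p = 0.0554), wild type 3 (0.0840), wild type 4 (0.0686), deletion 3 (0.0826) or deletion 4 (0.0525). Outflow tract markers stood higher with it: 5 of the 11 were called higher in 247 and 0 lower, and they summed to between 865 and 1216 CPM in 220 and between 1215 and 1481 CPM in 247. Among wild types the sums were 878.8 and 865.1 CPM in 220 and 1423 and 1481 CPM in 247. Among deletions they overlapped, at 1183 and 1216 CPM in 220 and 1334 and 1215 CPM in 247. Over the 9 libraries, with group means removed, Gjc1 had a Pearson r of 0.89 with that list, 0.31 with heart muscle and -0.81 with macrophage markers, as a description of libraries that share sets. The macrophage value was not particular to that list: r was -0.83 with lens, -0.81 with neuron and Schwann cell and -0.60 with epithelium markers. The part of these cells in the Gjc1 level was not tested.

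Gja4 and Gja5, the arterial pair, overlapped between genotypes and split by set among the wild types. Gja4 stood at 125, 150, 75.6 and 78.4 CPM in wild types 1 to 4 and at 104, 87.97, 88.5, 122 and 81.0 CPM in deletions 1 to 5. The wild types numbered 220 were the 2 highest libraries and those numbered 247 the 2 lowest. Gja5 stood at 73.5, 90.9, 44.1 and 30.02 CPM in wild types and at 57.3, 64.2, 50.2, 57.7 and 42.02 CPM in deletions. Here too the wild types of 220 were the 2 highest, and wild type 4 was the lowest. The deletions of both genes lay between the extremes of the wild types.

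The genotype differences of this pair therefore had opposite signs in the sets. For Gja4 the log2 fold change was -0.50 (SE 0.17) among libraries numbered 220 and 0.33 (SE 0.17) among those numbered 247 and 274, and for Gja5 it was -0.42 (SE 0.17) and 0.43 (SE 0.20). Over all libraries the values were -0.15 (SE 0.21, edgeR adjusted p = 0.948) for Gja4 and -0.14 (SE 0.28, edgeR adjusted p = 0.968) for Gja5. The interaction of genotype with 220 against 247 was 0.97 (SE 0.25) for Gja4 and 0.98 (SE 0.28) for Gja5, with edgeR adjusted p of 0.441 and 0.452, in a test that called 2 of 16303 genes (0.0123%), the adult globins Hbb-bs and Hbb-bt. DESeq2 gave the same interaction an adjusted p of 0.0346 for Gja4 and 0.0867 for Gja5, with 184 genes called. Between sets, Gja5 was lower in 247 by a log2 difference of -0.66 (SE 0.21, edgeR adjusted p = 0.0845) and Gja1 by -0.53 (SE 0.18, 0.102), which edgeR did not call and DESeq2 did (adjusted p = 0.0144 and 0.0266). Without deletion 1, edgeR called Gja1 too (-0.67, adjusted p = 0.0301).

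Other cell types differed with the set as well. The 9 macrophage markers summed to between 190.7 and 359.5 CPM in the libraries numbered 220 and to between 71.2 and 129.2 CPM in those numbered 247, with 7 of 9 called lower in 247, against 4.17% of all genes, and none at 0. The 12 endothelium markers, among them Tek and Pecam1, the genes of an angiopoietin receptor and an adhesion molecule, summed to between 1026 and 1290 CPM over all libraries, with 3 called higher and 4 lower in 247. Of the 5 neural crest genes tested, 2 were called higher and 0 lower in 247 (median log2 difference 0.49), and the outflow tract genes are given beside Gjc1. The 8 arterial endothelium markers summed to between 382.2 and 525.2 CPM in wild type and between 397.1 and 491.2 CPM in the deletion, with none at 0, and 1 was called higher and 1 lower in 247. By genotype edgeR called none of the 8, and only Bmx, a kinase gene of arterial endothelium, had an unadjusted p under 0.05 (log2 fold change -0.63, SE 0.24). An annotated exon of Gja5 overlaps the opposite-strand gene Gpr89, and without a stated strand setting reads there cannot be told apart. The part of these cells and genes in the Gja4 and Gja5 values was not tested.

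**Figure D4:**
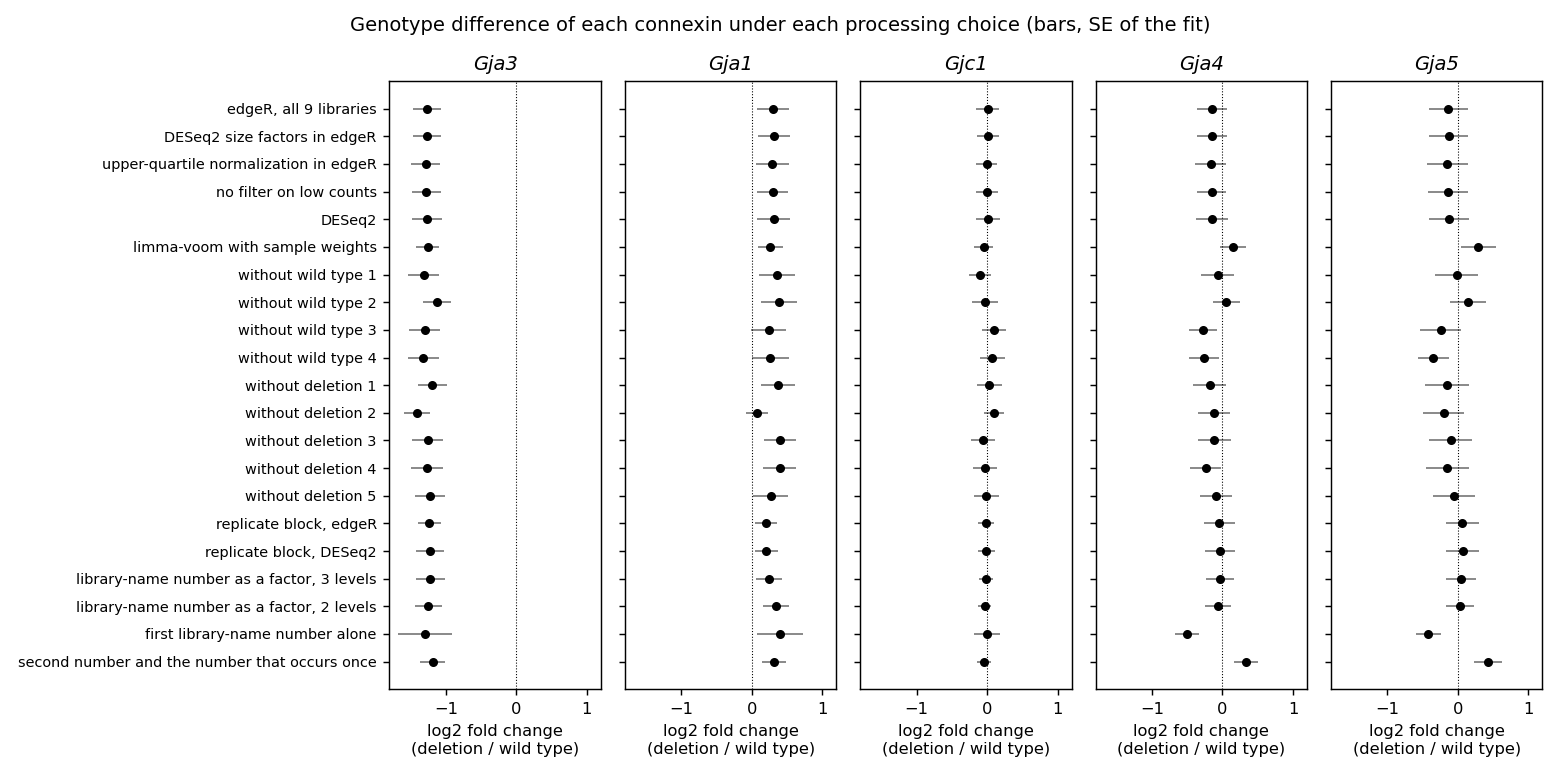
Log2 fold change of deletion against wild type (horizontal axis) for the 5 tested connexins under each of 21 fits (vertical axis); points are estimates and bars standard errors. Gja3 stays between -1.41 and -1.13, Gja1 stays above 0, and Gja4 and Gja5 change sign between the sets of libraries.

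Gjb2 was at the edge of detection. It had 12, 0, 0 and 18 reads in wild types 1 to 4 and 6, 43, 3, 4 and 8 reads in deletions 1 to 5. A count of 0 allows up to 3 reads, or 0.0745 CPM in wild type 2 and 0.0872 CPM in wild type 3, counting error only. Deletion 2 was again the highest, at 1.501 CPM, and every other library was at 0.436 CPM or less. Gjb2 did not pass the filter on low counts that the edgeR and limma-voom fits to all 9 libraries used, so those fits tested 5 of the 6 members. DESeq2 and edgeR without the filter did test it, and neither called it (adjusted p = 1 and 0.849).

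Levels of different connexins can be compared only per length. Per kilobase of all annotated exons, the order by mean CPM per kilobase was Gja4 at 60.2 ± 15.3 (SD, n = 9), Gjc1 at 29.3 ± 4.95, Gja1 at 26.2 ± 8.15, Gja5 at 9.86 ± 3.16, Gja3 at 3.38 ± 1.69 and Gjb2 at 0.131 ± 0.194. Each was higher than the next in 9 of 9 libraries except Gjc1 over Gja1, which held in 6. The ranges of Gja5 and Gja3 overlapped across libraries, with a Gja5 minimum of 5.23 and a Gja3 maximum of 6.47. The upper part of this order depends on the length: annotated exons of Gja1 add up to 10257 bases, but its longest protein-coding transcript to 3182. With the latter lengths, a choice made after seeing the data, Gja1 came first at 84.4, then Gjc1 at 63.4 and Gja4 at 60.2, and those neighbours exceeded each other in only 6 and 4 of 9 libraries. Gja5 (15.45), Gja3 (3.62) and Gjb2 (0.131) kept their places, each below the one before in 9 of 9 libraries.

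Among 16016 tested genes with a length, the level of Gja4 per kilobase of exons was at percentile 94.4, Gjc1 at 87.6, Gja1 at 85.9, Gja5 at 68.5, Gja3 at 46.1 and Gjb2, itself below the filter, at 4.23. Gja3 is thus a middling transcript of this tissue, and a small part of the connexin pool. Of the summed connexin level per kilobase of exons it made up 3.77% ± 0.412 (SD, n = 4) in wild type, from 3.18% to 4.10%, and 1.61% ± 0.298 (SD, n = 5) in the deletion, from 1.29% to 2.08%. With protein-coding transcript lengths these shares were 2.37% ± 0.207 and 0.953% ± 0.133. In percentage points the larger shares spanned more: Gja1 ranged from 15.6% to 33.5%, highest in deletion 2, Gjc1 from 15.7% to 30.9% and Gja4 from 38.4% to 52.7%, with the exon lengths. Relative to its own size, the Gja3 share spanned the widest range of these 4 over both genotypes together. That range holds the genotype difference by which Gja3 was chosen. Within wild type the Gjc1 share spanned relatively more, from 15.7% to 30.9%, and within the deletion the Gja1 share did, from 15.6% to 33.5%.

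**Figure D5:**
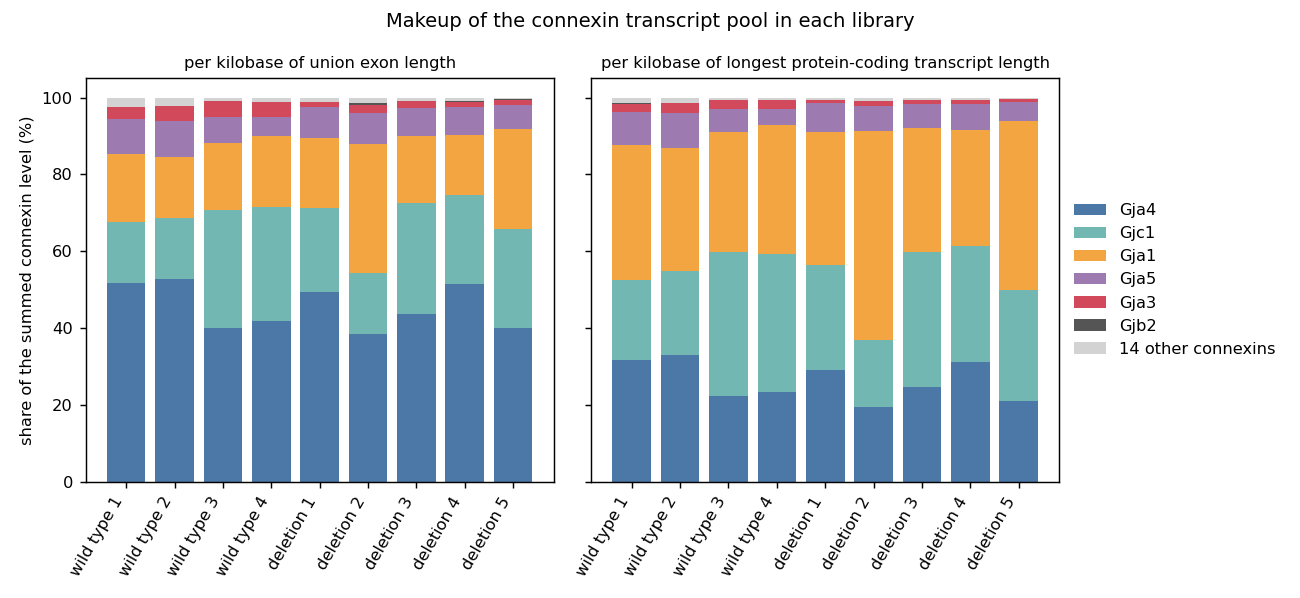
Share of each connexin in the summed connexin level of each library, in percent (vertical axis), with levels per kilobase of annotated exons on the left and of the longest protein-coding transcript on the right. Gja4, Gjc1 and Gja1 fill most of each bar with either length, and the Gja3 band is 3.18% to 4.10% in wild types and 1.29% to 2.08% in deletions on the left.

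Set against its own paralogues within each library, Gja3 also separated the groups. The ratio of Gja3 to Gja1 CPM was between 0.0513 and 0.0695 in wild type and between 0.0164 and 0.0279 in the deletion. To Gja4 it was 0.108 to 0.180 and 0.0458 to 0.0952, to Gja5 0.183 to 0.436 and 0.0833 to 0.130, and to Gjc1 0.0787 to 0.141 and 0.0343 to 0.0769. None of these 4 ratios overlapped, and all carry the Gja3 difference by which the gene was chosen. The ratio of Gja3 to Nkx2-5 did overlap, at 0.303 to 0.716 and 0.289 to 0.552.

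The remaining connexins were scarce. Of the 14 others, all stayed under 3 CPM in every library, 13 had a mean under 1 CPM, and Gje1 had 0 counts throughout. Gjb5, an epithelial connexin gene, was the exception with a mean of 1.09 CPM, at 1.54 ± 0.850 CPM over the 4 wild types and 0.727 ± 0.363 CPM over the 5 deletions (mean ± SD) (log2 fold change -1.08, SE 0.50, edgeR adjusted p = 0.896). Panx1, which encodes a pannexin, a membrane channel of related shape, stood at 41.1 ± 9.02 and 42.8 ± 2.89 CPM (log2 fold change 0.06, SE 0.14, edgeR adjusted p = 0.976).

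Gja3 lies in a small connexin cluster on chromosome 14 (GRCm38, minus strand, 57034460 to 57058100), and its neighbours were read to see whether they differed with it. Gjb2 starts 46.6 kb and Gjb6 75.5 kb away, and both were too low to test, Gjb6 with reads in only wild type 1 (0.779 CPM) and deletion 2 (1.22 CPM). On the other side the zinc finger genes Zmym2 and Zmym5 start within 250 kb. Zmym2 was at 128.9 ± 27.2 CPM over the 4 wild types and 135.6 ± 19.9 CPM over the 5 deletions (mean ± SD) (log2 fold change 0.07, SE 0.15, edgeR adjusted p = 0.969). Zmym5 was at 39.3 ± 6.94 and 44.8 ± 8.23 CPM (log2 fold change 0.19, SE 0.16, edgeR adjusted p = 0.934). Neither tested neighbour passed the test.

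Because the deleted enhancer serves a homeobox factor, the bases before the start of each member were searched on both strands for AAGTG, the core of NKX2-type sites, for its longer form TNAAGTG, and for the T-box type AGGTGTNA. RefSeq (GRCm38.p6) gave start sites for 5 of the 6 members, with 2 for Gja3. In the 250 bases before the start, AAGTG occurred once in Gja5 and in no window of the other 4 genes, the longer form and AGGTGTNA in none. Of 32851 mouse promoters of that length 40.7% held AAGTG, 10.1% TNAAGTG and 2.68% AGGTGTNA. Of the more upstream Gja3 window, the 180 bases upstream of its annotated exons are shown (minus strand, chr14:57058101-57058280). The 70 bases of that window nearest the start are left out. The whole Gja5 window is shown with its match in capitals (plus strand, chr3:97032152-97032401).
Gja3: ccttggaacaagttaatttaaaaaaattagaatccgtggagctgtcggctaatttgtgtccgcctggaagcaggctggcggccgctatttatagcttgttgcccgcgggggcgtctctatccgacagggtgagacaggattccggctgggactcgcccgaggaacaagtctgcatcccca
Gja5: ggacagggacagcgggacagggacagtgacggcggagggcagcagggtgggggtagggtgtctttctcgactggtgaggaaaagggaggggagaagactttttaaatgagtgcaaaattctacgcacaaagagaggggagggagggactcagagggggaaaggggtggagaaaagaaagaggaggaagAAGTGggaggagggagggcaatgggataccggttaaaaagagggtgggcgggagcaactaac
These letters describe the windows only.

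Genes whose products bind connexins or sit with them at the intercalated disc, the junction between heart muscle cells, showed no genotype difference past the test. Of 30 such genes, edgeR called 0, 0 had an unadjusted p under 0.05, and the median log2 fold change was 0.01, against 0.0029 over all genes tested. The most abundant were Nedd4, a ubiquitin ligase that acts on Cx43, at 1804 ± 61.7 CPM over the 4 wild types and 1845 ± 63.4 CPM over the 5 deletions (mean ± SD), and the filament gene Vim at 986.2 ± 97.2 and 1060 ± 105.4 CPM. Between sets, 7 of the 30 were called higher and 3 lower in 247, against 5.48% and 4.17% of all genes.

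Of 28 transcription factors and signalling genes described as acting on connexin genes in heart or arteries, edgeR called 0. At an unadjusted edgeR p under 0.05, 2 of the 28 were higher and 2 lower, against 5.27% of all genes in either direction. Their median log2 fold change was 0.07. Nkx2-5 itself was among the lower (log2 fold change -1.05, SE 0.26, edgeR adjusted p = 0.896). The higher were the T-box repressor gene Tbx20, at 480.5 ± 171.9 and 687.6 ± 87.98 CPM, and the progenitor factor gene Isl1, at 37.5 ± 6.24 and 67.4 ± 42.4 CPM, both with an edgeR adjusted p of 0.896.

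Across the 9 libraries, after the group means were removed, Gja4 and Gja5 varied most alike among the members (Pearson r of log2 CPM = 0.85), and Gja1 and Gjc1 most oppositely (-0.78). These are descriptions over 9 libraries that share sets and cell makeup. The same measure over 16521 other genes placed nearest to Gja3 the adaptor gene Grb2 (0.99), the anchoring protein gene Akap1 (0.98), 9330132A10Rik (0.97), the splicing factor gene Mbnl3 (0.94) and Rhbdf2 (0.94). Their own log2 fold changes lay between -0.12 and 0.07. Grb2 stood at 54.8 ± 5.199 CPM over the 4 wild types and 54.6 ± 4.975 CPM over the 5 deletions (mean ± SD). Gja3 and each gene named nearest to it were highest in wild type 2 among wild types and in deletion 2 among deletions. For Grb2 these were 62.5 and 61.9 CPM, against 48.75 to 56.2 CPM in the other libraries. How far these 2 libraries carry the correlations was not tested. Nearest to Gja1 were 4933427G23Rik and Tusc3, to Gja4 D330041H03Rik and Rnf166, to Gja5 Gabra2 and March2, and to Gjc1 Nudc and Actl6a, with r between 0.96 and 0.99.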

How the data were processed

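Total RNA of outflow tracts was made into low-input SMART-Seq libraries, per the labels' protocols. For each library the authors deposited raw read counts by gene symbol. STAR 2.5.0c, Picard, HTSeq 0.6.0, DESeq2 and mm10 are named in the submitters' processing notes; for annotation and strand the entry is: not given in the sources used here. The 5 rows naming no gene (20.6% to 23.5% of reads) were left out. Libraries were grouped by title.

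Counts were tested with edgeR 4.0.16 (quasi-likelihood, robust, TMM, filterByExpr with a minimum count of 10, Benjamini-Hochberg threshold 0.05) in R 4.3.3, with genotype alone, with genotype and library-name number, and with their interaction (8 libraries, 274 left out). SEs are the log2 fold change over the root of F. DESeq2 1.42.0, limma 3.58.1 (voom, sample weights), other normalizations and filters, and fits with each library left out were alternatives. Log2 CPM used a prior count of 2. The procedure was tested on simulated counts. Coordinates and lengths are from GENCODE M21; 46467 symbols matched. Proteins were aligned with BLOSUM62 (gap opening 11, extension 1).

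Deviations from group means were weakly correlated between same-numbered libraries of the 2 genotypes (r = 0.242, 0.137, 0.227 and 0.176 for replicate numbers 1 to 4). Wild types 2 and 4 correlated best with deletions 1 and 5, and deletion 2 with wild type 1. Numbers 1 and 2, and 3 and 4, also share the library names 220 and 247. The replicate number was used as a block in alternative fits only, and these values do not settle whether it marks pairs. In the fits with this block deletion 5 has no partner and adds nothing to the genotype estimate.

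Members and lists were chosen with earlier results of these data known. Named genes were Nkx2-5, the members, other connexins and pannexins of at least 1 CPM, coding genes within 250 kb of Gja3, the genes nearest by correlation, and, from lists described, genes at an unadjusted p under 0.05 or of highest mean. Some genes that this rule names are not reported here.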

Additional observations from a re-analysis of the deposited data

Results flagged for a closer look

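In wild type 2, Gja3 stood at 19.2 CPM, farther from the other 3 wild types than their spread allows by Dixon's criterion. Gjb2 was set apart in the same way by deletion 2, at 1.501 CPM, and Nkx2-5 by wild type 1, at 18.8 CPM. These are 3 of 14 groups examined, where chance flags about 1 in 20. For Gja4 and Gja5 both deletion libraries lay below both wild types among the libraries numbered 220 and above both among those numbered 247. The interaction was 0.97 on the log2 scale for Gja4 (edgeR adjusted p = 0.441, DESeq2 0.0346) and 0.98 for Gja5 (edgeR adjusted p = 0.452, DESeq2 0.0867).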

How the results depend on the processing

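Gja3 was below 0 in all 21 fits and Gja1 above 0 in all 21, between 0.08 and 0.40. Gja3 was past the threshold with DESeq2 (-1.27), limma-voom (-1.26) and DESeq2 with the replicate number as a block (-1.23, adjusted p = 9.26e-07), and not with edgeR, where the replicate block gave -1.23 (adjusted p = 0.470); the block changed no call of a member within either tool. Leaving out each library gave -1.41 to -1.13 with edgeR and with DESeq2, the DESeq2 fits with a library left out being chosen after seeing the data.

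The sign of the small differences was not stable, and the cause was not tested. Gja4 turned positive with limma-voom (0.15) and in 247 with 274 (0.33), with -0.28 to 0.054 over the libraries left out. Gja5 turned positive with limma-voom (0.29), the replicate block (0.059 in edgeR, 0.066 in DESeq2), library-name number as a factor (0.049 with 3 levels, 0.028 with 2) and in 247 with 274 (0.43), with -0.35 to 0.14 over the libraries left out. Gjc1 turned to -0.0048 with upper-quartile scaling, -0.00080 without the filter, -0.047 with limma-voom, -0.014 and -0.0089 with the replicate block in edgeR and DESeq2, -0.013 and -0.035 with number as a factor of 3 and 2 levels, -0.0057 in 220 and -0.044 in 247 with 274, with -0.10 to 0.10 over the libraries left out; its interaction turned to -0.021 with 274 read as 247.

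Genotype calls over all genes were 0 with edgeR (0 to 1 with a library left out, 0 with the replicate block), 4 with limma-voom, 38 with DESeq2 (26 to 65, the highest without deletion 2) and 69 with DESeq2 and the replicate block. Calls between 247 and 220 were 1594, 3141 with DESeq2, and 346 to 1717 with a library left out. The lowest counts were without wild type 3 (346), wild type 4 (391), deletion 3 (420), deletion 4 (784) and wild type 1 (982). Interaction calls were 2, 10 with 274 read as 247, and 184 with DESeq2.

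Levels per kilobase depend on the length by its construction. With the longest transcript Gja1, Gja5 and Gjc1 were at 69.1, 15.45 and 43.01, and with the longest protein-coding one at 84.4, 15.45 and 63.4. With the coding length the 6 were at 234 (Gja1), 8.01 (Gja3), 101.5 (Gja4), 51.3 (Gja5), 0.464 (Gjb2) and 124 (Gjc1). Shares of Gja1 were 35.4%, 36.5% and 44.2%, and of Gja4 31.0%, 26.2% and 19.4%, with the longest, protein-coding and coding lengths; that of Gja5 was 9.71% with coding length. With the group means kept, 0 of the 5 genes nearest to Gja3 were the same.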

Other observations

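Among the connexins that were not members, Gjd2, the main connexin gene of neurons, followed the set of libraries: it had 93 and 45 reads in wild types 1 and 2 and 24 and 10 in deletions 1 and 2, all numbered 220, against 1 read in deletion 3 and 0 in each of the other 4 libraries. The edgeR adjusted p of 247 against 220 was 0.0094 for Gjd2, which was named after its values were seen. In that comparison 9.65% of all genes tested passed, and the mean of Gjd2 was 0.507 CPM. Deletion 2, the library rich in neuron and Schwann cell markers, held the fewest Gjd2 reads of those numbered 220.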
